A study of Homo sapiens with 6 samples.

Results

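The mitochondrial ribosomal protein genes are the 78 protein-coding genes in the table of read counts whose symbols begin with MRPL or MRPS followed by a number and at most 1 letter, out of 28491 genes in the table and 16530 protein-coding genes. All 78 passed the filter on low counts, as did 16260 genes in all, and the lowest count of any member in any library was 98. By the standard names of their proteins, 51 belong to the large subunit (the 49 genes named MRPL, with MRPS18A and MRPS30, which carry a small subunit name), 26 belong to the small subunit, and MRPS36 encodes a component of the 2-oxoglutarate dehydrogenase complex and is in neither subunit.

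HCT116 is an established human colorectal cancer cell line, and the study asked what RBM47, an RNA-binding protein, changes in these cells. In 3 libraries (RBM47-OE) the cells were transfected with a plasmid that expresses RBM47 and in 3 libraries (NC) with a control plasmid. GEO's labels and the study's methods name different RBM47 plasmids and culture media, the empty plasmid is not described further, and the transfection was transient, so the share of cells that took up plasmid is not known. Cells of both groups were harvested 48 h after transfection and polyadenylated RNA was sequenced to between 26792409 and 35477983 gene counts per library. RBM47 itself stood at 19.1 to 23.1 CPM (gene counts scaled to library depth with TMM factors) in NC and at 1201 to 1267 CPM in RBM47-OE, a log2 fold change of 5.90 ± 0.0964 (SE). The epithelial genes KRT8, KRT18, KRT19, EPCAM and CDH1 were present in every library and VIL1 was at or below 0.761 CPM. Among markers of other cells CD3E, PECAM1 and CDH5 were at or below 0.266 CPM, COL1A1 was between 13.04 and 17.8 CPM and ACTA2 between 4.79 and 9.98 CPM. Some of these markers moved as well: KRT8 and KRT18 fell by 0.27 and 0.36 on the log2 scale (edgeR adjusted p = 0.012 and 0.0011), ACTA2 fell by 0.56 (adjusted p = 0.0068) and EPCAM rose by 0.26 (adjusted p = 0.007). Summed, the epithelial markers were 13.5% lower in RBM47-OE and the markers of other cells went from 24.4 to 20.9 CPM, and their part in the results was not tested. RBM47-OE replicate 1 stood apart from its group: over all genes its median absolute log2 difference was 0.185 and 0.194 from RBM47-OE replicates 2 and 3 and 0.182 to 0.20 from the NC libraries, while RBM47-OE replicates 2 and 3 differed by 0.138 and NC libraries by 0.102 to 0.107. As these are bulk libraries, fewer cells of a type and less RNA per cell cannot be told apart. Nothing states that replicates came from separate cultures, so p-values measure the spread between these libraries, which may be technical.

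Mitochondria have their own ribosomes, which make the few respiratory chain and ATP synthase subunits encoded by mitochondrial DNA. The 2 ribosomal RNAs come from mitochondrial DNA, whereas every protein of the particle is encoded in the nucleus, translated in the cytosol and imported. Some of these proteins belong to families shared with bacterial ribosomes, and others are found only in mitochondria. The particle is built through ordered assembly steps that need GTPases, RNA helicases and rRNA methyltransferases, and inherited defects in several of its proteins cause mitochondrial disease.

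Levels between genes were compared per length, as FPKM, fragments scaled to gene length and library depth. Over all 6 libraries the mean level of a member ranged from 1.53 FPKM for MRPS17 to 211 FPKM for MRPL12, a ratio of 138, with a median of 24.9 FPKM. Of the 78 members 60 stood at 10 FPKM or more and 5 under 5 FPKM, and the median member stood above 90.7% of 16368 protein-coding genes. MRPL12, which forms the flexible stalk that recruits translation factors, MRPL41 (147 FPKM) and MRPS34 (142 FPKM), both specific to mitochondrial ribosomes, were the most abundant. MRPS17, MRPL46 (4.02 FPKM) and MRPL42 (4.59 FPKM) were the least abundant by FPKM. The gene lengths behind the FPKM are not given in the sources used here. MRPL46 and MRPL42 have 6402 and 16368 exonic bases, where their canonical transcripts have 986 and 15557. Not scaled to length, they stood at means of 30.3 and 74.7 CPM in NC, and MRPS17 at 3.93 CPM. Levels per canonical transcript were not computed, so the place of MRPL46 in this ranking is uncertain.

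More members fell than rose in RBM47-OE. In the edgeR quasi-likelihood test, with p-values adjusted by Benjamini-Hochberg over all 16260 genes, 37 of 78 members (47.4%) fell at an adjusted p under 0.05, against 16.9% of all genes tested, 11 (14.1%) rose, against 19.1%, and 30 did not pass. The median log2 fold change (RBM47-OE minus NC) was -0.18 over the members and 0.00 over all genes. The changes were small: 77 of 78 members differed by less than 1.5-fold and 31 by less than 0.2 on the log2 scale, in a range from -0.52 (MRPL12) to 0.61 (MRPL1). By the criteria the study set, a fold change above 1.5 at an unadjusted p under 0.01, only MRPL1 was higher (1 of 78, 1.28%, against 1.51% of all genes) and 0 members were lower (against 0.873% of all genes), by edgeR as by DESeq2 and limma, whereas 41 by edgeR, 38 by DESeq2 and 34 by limma were lower at an unadjusted p under 0.05 alone (21.3% of all genes by edgeR). All 3 RBM47-OE libraries lay below all 3 NC libraries for 40 members (51.3%, against 23.4% of all genes) and above them for 12 (15.4%, against 23.2%). The members were more abundant than all genes tested (median 24.9 against 3.01 FPKM), so a change of the same size could pass more readily. Shares among genes of like abundance were not computed, which limits each comparison with all genes here and below. The count of members that rose was 5 when NC replicate 2 was left out and 5 when RBM47-OE replicate 3 was, and without RBM47-OE replicate 1 it was 13, with 42 that fell.

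**Figure D1:**
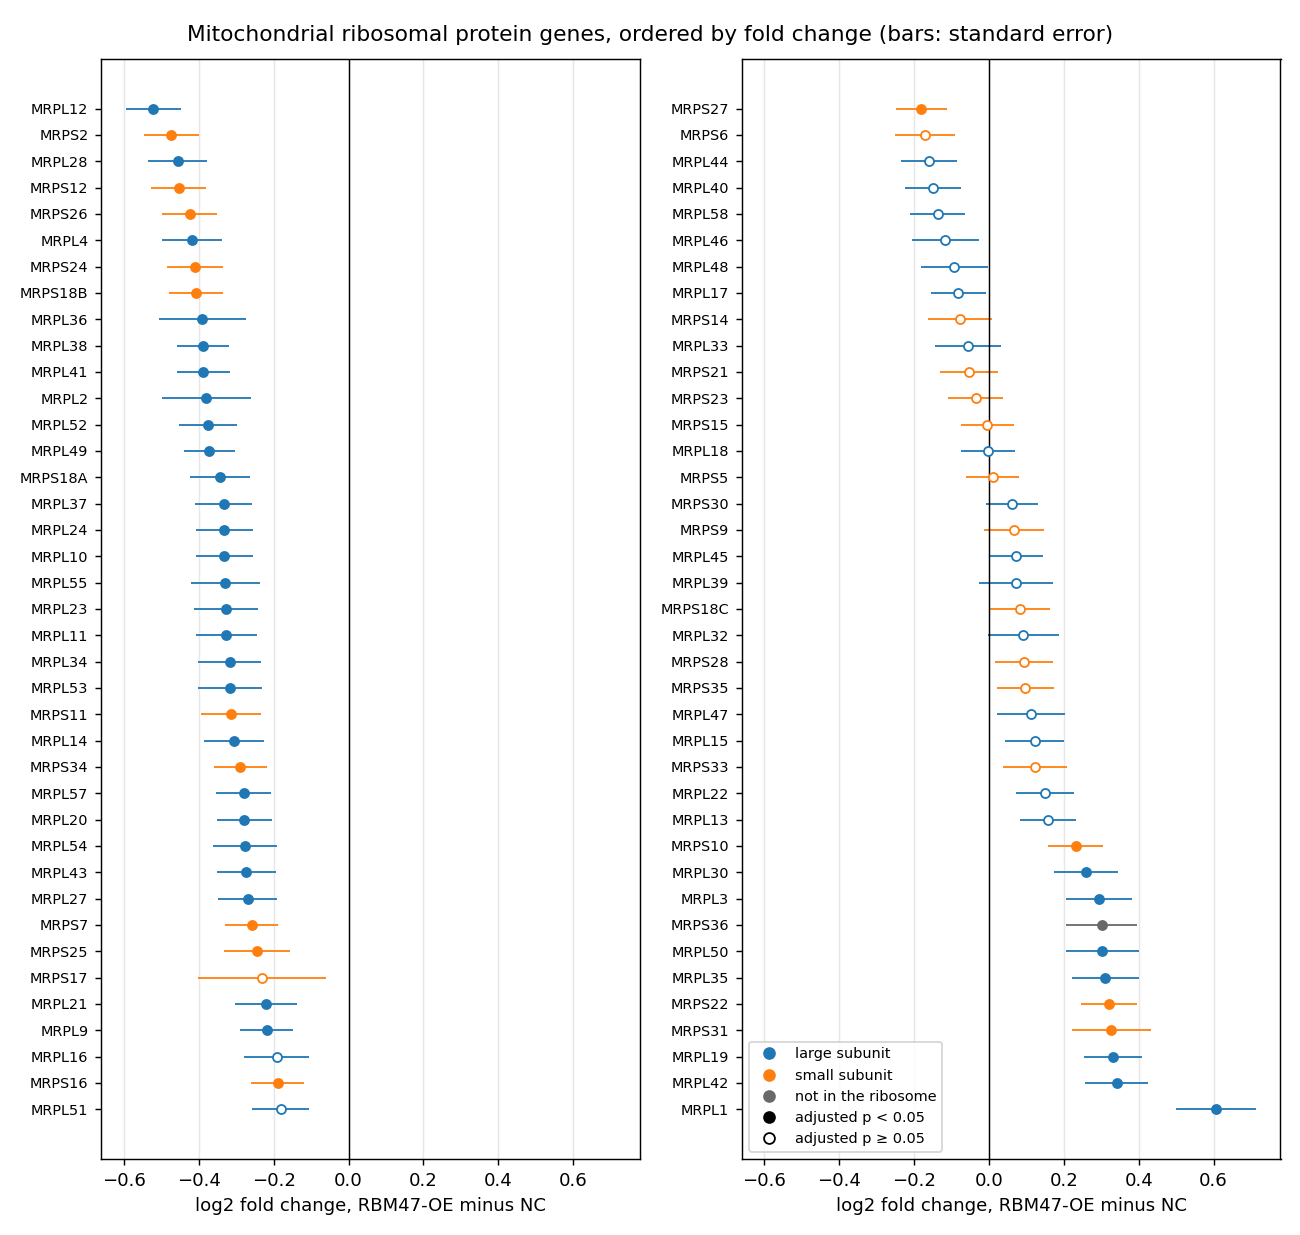
Each point is 1 of the 78 members, with its edgeR log2 fold change (RBM47-OE minus NC) on the horizontal axis and its standard error as a bar, ordered from the lowest at the top left to the highest at the bottom right. Colour gives the subunit, filled points have an adjusted p under 0.05 (37 lower, 11 higher), and MRPL12 and MRPL1 are the ends of the range.

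Summed over the 78 members, the libraries held 5942, 6010 and 5743 CPM in NC and 5387, 4968 and 5403 CPM in RBM47-OE, which is 10.9% less on average. The groups did not overlap, and RBM47-OE replicate 2 was the lowest library. The members took 0.562 to 0.586% of all gene counts in NC and 0.522 to 0.546% in RBM47-OE. The large subunit members summed to 3889 ± 89.0 CPM in NC and 3436 ± 174 CPM in RBM47-OE (SD, n = 3), and the small subunit members to 1990 ± 49.8 and 1794 ± 73.2 CPM. In RBM47-OE replicates 1, 2 and 3, 55, 58 and 48 members lay below their NC mean, where 48.8%, 49.3% and 51.2% of all genes did. The median SD of log2 CPM over the members was 0.12 in RBM47-OE and 0.0535 in NC, and over all genes tested it was 0.145 and 0.0883.

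**Figure D2:**
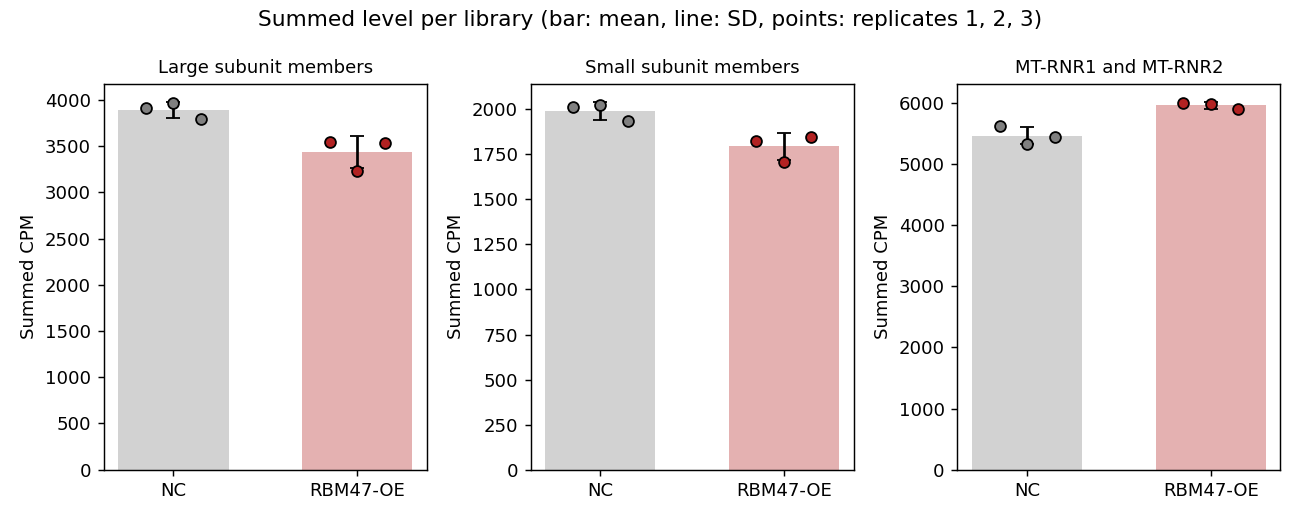
Summed CPM of the large subunit members, the small subunit members and the mitochondrial rRNAs MT-RNR1 and MT-RNR2 in each library, with bars for the mean of 3 libraries and lines for the SD. The RBM47-OE points lie below the NC points in both subunits and above them for the sum of the rRNAs. Within that sum MT-RNR1 fell and MT-RNR2 rose.

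The fold changes of the members followed their base composition. Exonic GC content, from GENCODE 44 gene models on GRCh38, ranged from 35% (MRPL50) to 66.7% (MRPL41) with a median of 47.9%. Of the 39 members below that median 11 rose and 5 fell, whereas of the 39 at or above it 0 rose and 32 fell. No fold change of this second group was positive, and 0 were higher at an unadjusted p under 0.05 by edgeR, DESeq2 or limma. Over all genes tested, of any GC content, 19.1% rose and 16.9% fell. Shares of all genes on each side of that median were not computed. The median GC content was 39.6% in the members that rose and 54.6% in those that fell. Spearman's rho between GC content and log2 fold change was -0.86 across the 78 members and -0.63 across 16233 genes of the same libraries. It is a description only, since these genes share their 6 libraries. The rho with exonic length was 0.27 and with FPKM -0.44.

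The members nevertheless lay lower than other genes of like GC content. In 10 bins of all tested genes by GC content, more than 50% of the members fell below the median of their bin in every bin, from 6 of 9 in the second to 9 of 9 in the first and 8 of 8 in the tenth. In the first bin (23.5 to 38.9% GC) the median log2 fold change was 0.15 for members and 0.38 for all genes, and in the tenth (61.6 to 85.5%) it was -0.41 and -0.23. A second edgeR fit took each library's trend with GC content out as an offset, whatever gave rise to that trend. With this GC offset 30 members fell (38.5%, against 8.46% of all genes) and 1 rose (1.28%, against 6.0%), and the median of the members was -0.17 against 0.00 for all genes. Of the members that fell, 21 did so in both fits, 16 only without and 9 only with the offset, and all 37 that fell without it kept a negative value. Of the 11 that rose without the offset 1 rose with it, and MRPL19, MRPL50 and MRPS10 took negative values (-0.01, -0.06 and -0.01). With the offset, the members below the median GC content had 14 that fell and those at or above it 16. The count of 30 was 18 without NC replicate 1 and 15 without NC replicate 2, and 14 of the 30 fell with each of the 6 libraries left out in turn. The 1 that rose, MRPL1, passed in 1 of these 6 fits. An offset from the GC content of canonical transcripts gave 30 that fell and 0 that rose (edgeR, with 2 higher at an unadjusted p under 0.05), and 23 of the 30 above were among those that fell. MRPL9, MRPL16, MRPL27, MRPL32, MRPL37, MRPL46 and MRPS30 were not. The members were also shorter than all genes tested, with a median exonic length of 2544 against 4717 bases. The members' median log2 fold change less that of all genes was -0.181 without an offset. It was -0.118 with a length offset and -0.156 with a GC and length offset. Whether the GC trend is technical was not tested.

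**Figure D3:**
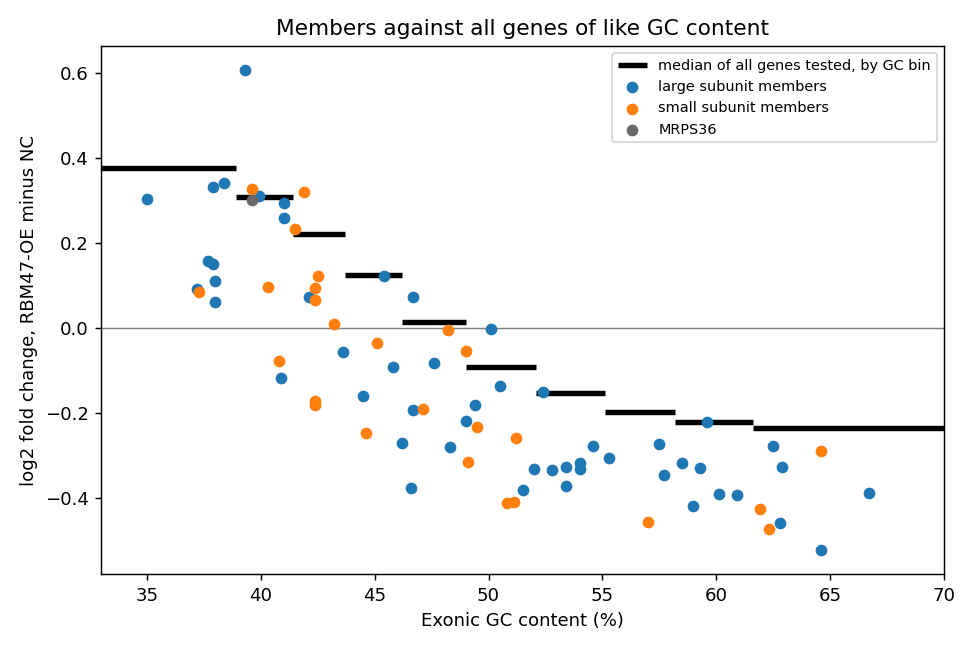
Log2 fold change (RBM47-OE minus NC) against exonic GC content in percent for the 78 members (points, coloured by subunit), with black lines for the median of all tested genes in each of 10 GC bins. Members slope down with the lines, from a bin median of 0.38 to -0.23, and most lie under them.

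**Figure D4:**
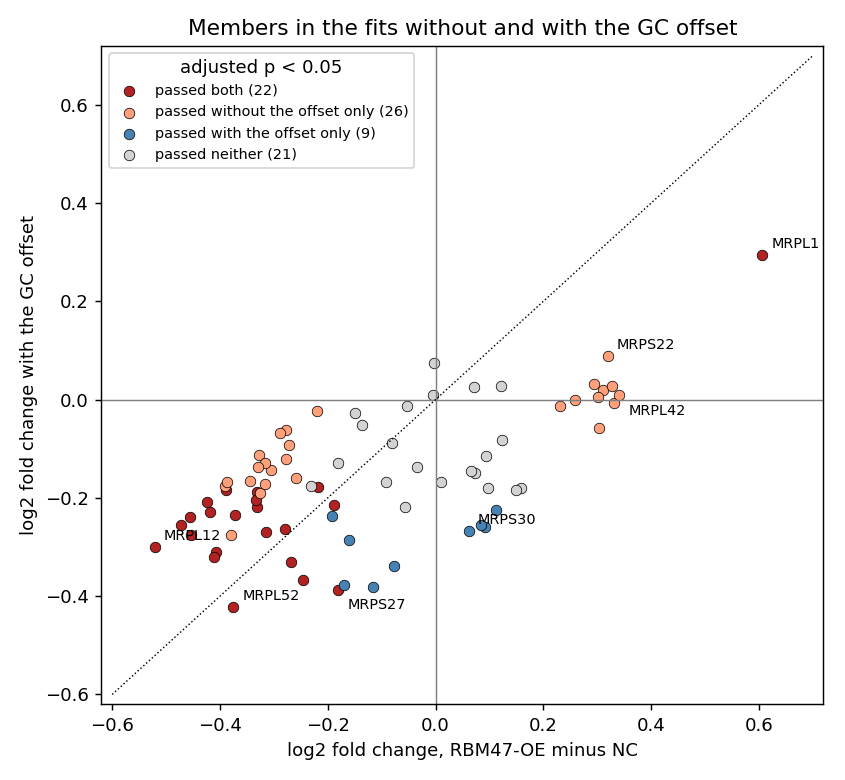
Log2 fold change of each member in the fit without (horizontal) and with (vertical) the GC offset, coloured by the fits in which its adjusted p was under 0.05, with a dotted line of equal values. The members that rose without the offset move to about 0, apart from MRPL1, and 9 members pass only with it, all lower.

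Of the large subunit members 26 of 51 fell and 7 rose, with a median log2 fold change of -0.22, and with the GC offset 18 fell and 1 rose (median -0.17). Of the small subunit members 11 of 26 fell and 3 rose (median -0.12), and with the offset 12 fell and 0 rose by edgeR, also at an unadjusted p under 0.05 (median -0.18). The small subunit members had the lower median GC content, 44.9% against 49.4%. The 48 members of families shared with bacteria counted 24 that fell and 6 that rose, and the 29 specific to mitochondria 13 and 4, where 16.9% of all genes fell and 19.1% rose. With the offset the counts were 19 and 1 for the former and 11 and 0 for the latter. In that fit 8.46% of all genes fell and 6.0% rose. The differences between these classes were not tested.

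All 3 genes of the stalk of the large subunit, where translation factors dock, fell, where 47.4% of all members and 16.9% of all genes did. Their GC content was 52.0 to 64.6%, and of the 39 members at or above the median GC content 32 fell. MRPL12 stood at 277, 294 and 284 CPM in NC and 214, 180 and 202 CPM in RBM47-OE, and fell by 0.52 ± 0.0736 on the log2 scale (SE, adjusted p = 3.2e-05). The groups were far apart and RBM47-OE replicate 2 was the lowest. MRPL12 also fell with the GC offset, by 0.30 (adjusted p = 0.0021). Its exons share 69.5% of their bases with an overlapping gene model on the same strand, so the counting could split its reads. MRPL10 and MRPL11, of the stalk base, fell by 0.33 each (adjusted p = 0.0017 and 0.0029), and with the offset MRPL10 fell by 0.22 (adjusted p = 0.02) and MRPL11 was at -0.19 (adjusted p = 0.064).

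MRPL1 was the member that rose most. Its protein belongs to the mobile L1 stalk, beside the site from which spent tRNA leaves, and the gene lies on chromosome 4 (77862830 to 77952785, GRCh38, forward strand). It stood at 19.98, 19.7 and 19.1 CPM in NC and at 23.8, 31.6 and 34.1 CPM in RBM47-OE, 0.61 ± 0.107 higher on the log2 scale (adjusted p = 1.9e-04). The groups did not overlap, and RBM47-OE replicate 1 lay nearest to NC. The gene also rose with the GC offset, by 0.29 (adjusted p = 0.019). That call was lost without NC replicate 1, 2 or 3 (0.30, 0.31 and 0.28) and without RBM47-OE replicate 2 or 3 (0.27 and 0.23), and held without RBM47-OE replicate 1 (0.37). With an offset for the GC content of the canonical transcript alone it was at 0.24 and did not pass (adjusted p = 0.05 after rounding).

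Among the other large subunit members, MRPL28 and MRPL4 had the next largest decreases. MRPL28 stood at 71.6, 70.1 and 72.9 CPM in NC and 58.0, 48.4 and 49.97 CPM in RBM47-OE and fell by 0.46 ± 0.078 (adjusted p = 1.4e-04). MRPL4, whose bacterial relative reaches into the wall of the exit tunnel, fell by 0.42 ± 0.0799 (adjusted p = 3.4e-04). Both also fell with the GC offset, by 0.24 and 0.23 (adjusted p = 0.0079 and 0.017). MRPL41, with the highest GC content of the members, fell by 0.39 (adjusted p = 2.5e-04) and with the offset was at -0.17 (adjusted p = 0.059).

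MRPL52, specific to mitochondria, had the largest decrease of all members in the fit with the GC offset. It stood at 78.9, 80.4 and 77.0 CPM in NC and at 66.6, 54.8 and 60.8 CPM in RBM47-OE, with no overlap. It fell by 0.38 ± 0.077 (adjusted p = 6.4e-04) and, with the GC offset, by 0.42 (adjusted p = 3.0e-04). With the canonical GC offset it fell by 0.27 (adjusted p = 0.0054), and the largest decrease was that of MRPS14 (-0.37). The GC content of MRPL52 is 46.6% over all exons and 52.3% in the canonical transcript. MRPL27, of the central protuberance, whose bacterial relative reaches toward the peptidyl transferase centre, fell by 0.27 (adjusted p = 0.0091) and with the offset by 0.33 (adjusted p = 0.0029). Without the offset it did not pass when NC replicate 1 (-0.24) or RBM47-OE replicate 2 (-0.18) was left out, and with the canonical GC offset it was at -0.13 (adjusted p = 0.19). MRPL46, also of the central protuberance, was at -0.12 without the offset (adjusted p = 0.33) and fell by 0.38 with it (adjusted p = 8.8e-04). With the canonical GC offset it was at -0.02 (adjusted p = 0.91), as its GC content is 40.9% over all exons and 51.9% in the canonical transcript. Its groups overlapped, with 29.7 to 31.2 CPM in NC and 24.97 to 30.3 CPM in RBM47-OE.

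The large subunit members that rose beside MRPL1 did so by less. MRPL42 stood at 75.1, 71.0 and 77.9 CPM in NC and 79.5, 99.5 and 105 CPM in RBM47-OE, and rose by 0.34 ± 0.0849 (adjusted p = 0.0029). Replicate 1 of RBM47-OE was close to the highest NC library. MRPL19, MRPL35 and MRPL50 rose by 0.33, 0.31 and 0.30 (adjusted p = 0.0018, 0.0083 and 0.017), with no overlap between groups. These 4 were, with the GC offset, between -0.06 and 0.02. MRPL3 rose by 0.29 (adjusted p = 0.011), but its groups overlapped, with 113 to 125 CPM in NC and 123 to 170 CPM in RBM47-OE. MRPL35 did not pass without RBM47-OE replicate 3 (0.20). MRPL50 did not pass without NC replicate 1 or 2 or RBM47-OE replicate 3 (0.29, 0.30 and 0.22), nor MRPL3 without NC replicate 2 or 3 or RBM47-OE replicate 3 (0.27, 0.27 and 0.15). Named pseudogenes exist for several of these genes, 5 for MRPL42, 4 for MRPL35 and 3 for MRPL50.

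In the central protuberance, the crown of the large subunit, 3 of 8 members fell (MRPL27, MRPL38 and MRPL55) and 0 rose, by edgeR, DESeq2 or limma and at an unadjusted p under 0.05, and with the GC offset MRPL27, MRPL38 and MRPL46 fell, of which only MRPL38 also fell with the canonical GC offset. The list of 8 members around the exit tunnel leaves out MRPL4, which fell in both fits as given above. Of these 8 listed members 2 fell (MRPL23 and MRPL24) and 0 rose by edgeR or DESeq2 (0 at an unadjusted p under 0.05, 1 by limma). With the offset MRPL24, MRPL44 and MRPL47 of that list fell. The medians of the lists were -0.14 and 0.00, against 0.00 over all genes. Of all genes 16.9% fell and 19.1% rose, and with the GC offset 8.46% fell and 6.0% rose. MRPL45, which binds the ribosome to the inner mitochondrial membrane, was at 0.07 (adjusted p = 0.47), with 98.0 to 105 CPM in NC and 100 to 115 CPM in RBM47-OE. MRPL58, a peptidyl-tRNA hydrolase built into the particle, was at -0.14 (adjusted p = 0.15). MRPS30, a large subunit protein despite its name, was at 0.06 (adjusted p = 0.53) and fell by 0.27 with the GC offset (adjusted p = 0.0079), but was at 0.00 with the canonical GC offset (adjusted p = 0.97).

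In the small subunit, MRPS2, MRPS12, MRPS26, MRPS24 and MRPS18B had the largest decreases. MRPS2, whose bacterial relative lies near the path by which mRNA leaves, stood at 90.3, 93.4 and 90.3 CPM in NC and 71.7, 61.4 and 64.3 CPM in RBM47-OE and fell by 0.47 ± 0.0741 (adjusted p = 6.5e-05). MRPS26, specific to mitochondria, fell by 0.42 ± 0.0732 (adjusted p = 1.5e-04). Both also fell in the fit with the GC offset, by 0.26 and 0.21 (adjusted p = 0.0039 and 0.016). The groups did not overlap for either gene.

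Of the proteins at the mRNA entrance and the decoding centre, MRPS12 and MRPS24 fell and MRPS5 did not pass. MRPS12, whose bacterial relative helps to check codon and anticodon pairing, stood at 97.9, 98.9 and 96.9 CPM in NC and at 76.6, 64.9 and 72.9 CPM in RBM47-OE. It fell by 0.45 ± 0.074 (adjusted p = 9.3e-05), and by 0.28 with the GC offset (adjusted p = 0.0034). MRPS24, at the mRNA entrance, stood at 92.3, 101 and 93.5 CPM in NC and at 78.0, 68.4 and 69.4 CPM in RBM47-OE. It fell by 0.41 ± 0.0744 (adjusted p = 2.2e-04), and by 0.32 with the offset (adjusted p = 0.0011). MRPS24 shares 23.3% of its exonic bases with a readthrough gene on its strand. MRPS5, its neighbour at the entrance, stood at 70.4 to 73.4 CPM in NC and 69.7 to 74.6 CPM in RBM47-OE, a log2 fold change of 0.01 ± 0.071 (adjusted p = 0.93). With the offset MRPS5 was at -0.17 (adjusted p = 0.065).

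Human mitochondria have 3 paralogs of the bacterial protein S18, at different places in the particle. MRPS18B stood at 158, 157 and 145 CPM in NC and at 122, 108 and 116 CPM in RBM47-OE, and fell by 0.41 ± 0.072 (adjusted p = 1.8e-04). MRPS18A, which sits in the large subunit, fell by 0.34 ± 0.0799 (adjusted p = 0.0017). MRPS18C, which takes the place of the bacterial protein in the small subunit, stood at 40.4, 41.9 and 40.8 CPM in NC and 45.9, 40.0 and 44.8 CPM in RBM47-OE. Its groups overlapped, and its log2 fold change was 0.08 ± 0.0801 (adjusted p = 0.44). The GC content of MRPS18A, MRPS18B and MRPS18C was 57.7, 51.1 and 37.3%. With the GC offset all 3 values were negative: MRPS18B fell by 0.31 (adjusted p = 0.0012), MRPS18C fell by 0.26 (adjusted p = 0.037), and MRPS18A was at -0.16 (adjusted p = 0.067). MRPS18A and MRPS18C share 50.9 and 40.2% of their exonic bases with genes on the other strand, and whether the counting used strand is not given in the sources used here. The differences between the paralogs were not tested.

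MRPS27, MRPS6 and MRPS25 had the largest small subunit decreases with the GC offset. MRPS27, a pentatricopeptide repeat protein, stood at 139, 139 and 141 CPM in NC and at 123, 118 and 128 CPM in RBM47-OE, with no overlap. It fell by 0.18 ± 0.0686 (adjusted p = 0.042), and by 0.39 with the offset (adjusted p = 1.7e-04). MRPS6 was at -0.17 (adjusted p = 0.099) and fell by 0.38 with the offset (adjusted p = 0.0011), although its 3 RBM47-OE libraries, at 35.8 to 40.2 CPM, were all below NC, at 42.3 to 44.5 CPM. MRPS25 fell by 0.25 (adjusted p = 0.031) and by 0.37 with the offset (adjusted p = 0.0039). The GC content of MRPS27 and MRPS25 was taken over 19524 and 18309 exonic bases, where their canonical transcripts have 2770 and 4572. The exons that were counted are not given in the sources used here, so their place in this ranking is uncertain. With the canonical GC offset MRPS27, MRPS6 and MRPS25 fell by 0.25, 0.20 and 0.29 (adjusted p = 0.0049, 0.048 and 0.016). MRPS14 and MRPS18B had larger decreases in that fit (-0.37 and -0.31). Without the offset, MRPS27 did not pass when NC replicate 1, 2 or 3 or RBM47-OE replicate 2 was left out (-0.18, -0.19, -0.17 and -0.15), nor MRPS25 without any of these or RBM47-OE replicate 3 (-0.26 to -0.21), while MRPS6 passed without RBM47-OE replicate 1 (-0.18).

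MRPS22 and MRPS31, both specific to mitochondria, and MRPS10, of a family shared with bacteria, rose in the small subunit. MRPS22 stood at 60.1, 63.9 and 59.4 CPM in NC and at 72.6, 73.6 and 82.9 CPM in RBM47-OE, and rose by 0.32 ± 0.0751 (adjusted p = 0.0019). MRPS31 rose by 0.33 ± 0.105 (adjusted p = 0.017) and MRPS10 by 0.23 ± 0.0729 (adjusted p = 0.015), with no overlap between groups. In the fit with the GC offset MRPS22, MRPS31 and MRPS10 were at 0.09, 0.03 and -0.01 (adjusted p = 0.37, 0.88 and 0.91). MRPS22 shares 42.8% of its exonic bases with genes on the other strand, and 5 pseudogenes are named for MRPS31. MRPS36, outside the ribosome, rose by 0.30 (adjusted p = 0.015) and was at 0.01 with the offset (adjusted p = 0.98). MRPS31 did not pass without NC replicate 1 or 2 or RBM47-OE replicate 3 (0.31, 0.30 and 0.22), nor MRPS36 without NC replicate 2 or 3 or RBM47-OE replicate 3 (0.30, 0.29 and 0.23). MRPS17, the least abundant member, was at 3.58 to 4.25 CPM in NC and 3.05 to 3.65 CPM in RBM47-OE, a log2 fold change of -0.23 ± 0.17 (adjusted p = 0.31).

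**Figure D5:**
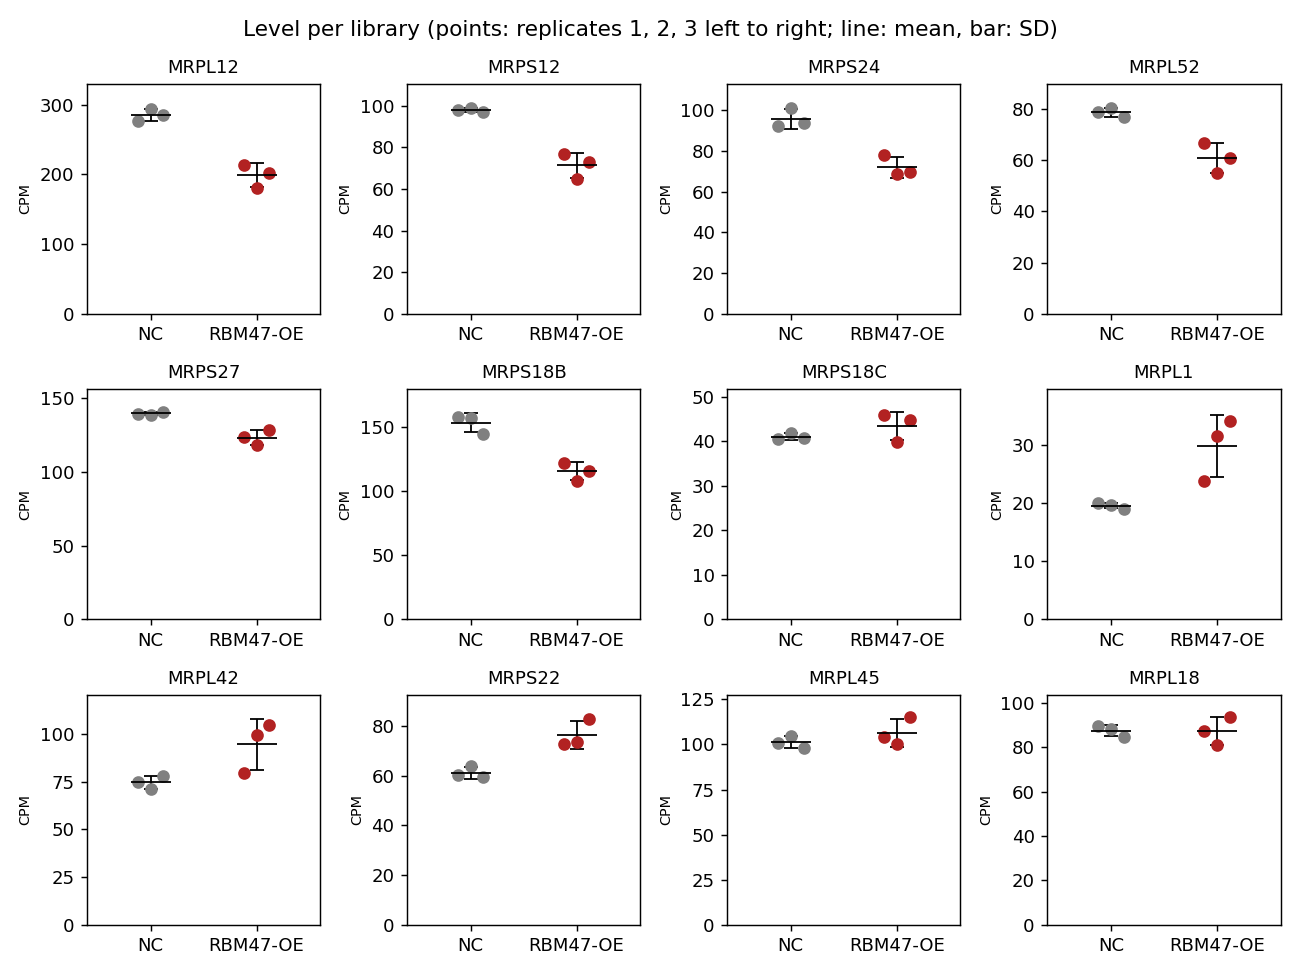
CPM of 12 members in each library, with points for replicates 1, 2 and 3 from left to right, a line for the mean and a bar for the SD, each axis starting at 0. MRPL12, MRPS12, MRPS24, MRPL52, MRPS27 and MRPS18B are lower in all RBM47-OE libraries, MRPL1, MRPL42 and MRPS22 are higher in all, and the groups overlap for MRPS18C, MRPL45 and MRPL18.

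A chosen list, which may not be complete, held 12 members in which inherited variants are known to cause mitochondrial disease. Of these 12, 6 fell (MRPL12, MRPS2, MRPS7, MRPS16, MRPS25 and MRPS34) and 2 rose (MRPL3 and MRPS22), where 47.4% of all members and 16.9% of all genes fell. With the GC offset 6 fell and 0 rose by edgeR, also at an unadjusted p under 0.05, and those that fell were MRPL12, MRPL44, MRPS2, MRPS14, MRPS16 and MRPS25. MRPL44, a protein with an RNase III fold by the exit tunnel, was at -0.16 without the offset (adjusted p = 0.097) and fell by 0.29 with it (adjusted p = 0.005). MRPS14 was at -0.08 (adjusted p = 0.52) and fell by 0.34 (adjusted p = 0.0054). MRPS34, which is among the most abundant and GC-rich members, fell by 0.29 (adjusted p = 0.0025) and was at -0.07 with the offset (adjusted p = 0.48). MRPS7 and MRPS16 fell by 0.26 and 0.19 (adjusted p = 0.0057 and 0.038), while MRPS23 and MRPS28 were at -0.03 and 0.09 (adjusted p = 0.75 and 0.37). MRPS7 did not pass without NC replicate 1 (-0.23), nor MRPS16 without NC replicate 1, 2 or 3 or RBM47-OE replicate 3 (-0.16, -0.18, -0.23 and -0.17), and MRPL44 passed without RBM47-OE replicate 1 (-0.19). The median over the 12 was -0.18. In the fit with the GC offset 8.46% of all genes fell and 6.0% rose.

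Around their start sites, the members were rich in sequences that match binding motifs of 2 factors known for nuclear genes of mitochondrial proteins. In windows of 250 bases before to 50 after the RefSeq start (GRCh38.p14, the first listed start per gene), which were found for 69 of 78 members, both strands were searched for exact letters. The ETS family motif CCGGAAG, which GABPA binds, was in 29 of 69 member promoters (42.0%), 10.7% of 27305 promoters and 19.0% of those of tested coding genes. The YY1 motif AAGATGG was in 23 (33.3%), against 6.06 and 7.48%. The last 3 letters of CCGGAAG are the first 3 of AAGATGG, so 1 stretch can hold both. The NRF1 motif GCGCATGCG was in 3 members (4.35%, against 2.1 and 3.66%), the E-box CACGTG in 6 (8.7%, against 7.43 and 10.2%), CCAAT in 20 (29.0%, against 35.7 and 36.6%) and TATAAA in 2 (2.9%, against 12% and 5.32%). CCGGAAG was in 13 of 33 promoters of members that fell and 5 of 9 of members that rose, and AAGATGG in 13 of 33 and 3 of 9.

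The promoters of MRPL52 and MRPS27, with the largest decreases with the GC offset, and of MRPL1, the only member that rose in that fit, are shown from 120 bases before to 30 after the start, 5′ to 3′ on the gene's strand, with matches to any of the 6 motifs in capitals. MRPL52 (chr14:22829767-22829916, forward strand) holds AAGATGG at 98 and 64 bases before the start and CCGGAAG on the other strand. MRPS27 (chr5:72320211-72320360, reverse strand) holds CCAAT before and AAGATGG after the start. MRPL1 (chr4:77862710-77862859, forward strand) holds none of the 6, which says only that these letters are not in the window. A match is a description and not a bound site.
MRPL52: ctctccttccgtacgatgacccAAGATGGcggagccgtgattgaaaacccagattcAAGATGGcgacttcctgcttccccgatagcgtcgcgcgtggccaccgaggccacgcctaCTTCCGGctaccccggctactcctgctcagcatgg
MRPS27: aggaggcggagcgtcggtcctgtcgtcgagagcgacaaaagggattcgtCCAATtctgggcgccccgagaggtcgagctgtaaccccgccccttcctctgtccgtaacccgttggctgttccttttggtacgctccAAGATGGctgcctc
MRPL1: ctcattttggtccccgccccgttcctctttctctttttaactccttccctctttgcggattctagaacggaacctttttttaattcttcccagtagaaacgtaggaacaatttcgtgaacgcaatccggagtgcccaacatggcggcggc

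The genes of the factors that drive nuclear genes for mitochondria did not move in 1 direction. YY1 stood at 128, 125 and 128 CPM in NC and at 152, 160 and 159 CPM in RBM47-OE, and rose by 0.30 ± 0.0679 (adjusted p = 0.0012) and by 0.30 with the GC offset (adjusted p = 7.1e-04). GABPA, the ETS subunit of the GABP factor, rose by 0.35 (adjusted p = 0.0037) and was at 0.02 with the offset (adjusted p = 0.9). PPRC1, a coactivator of the PGC-1 family, stood at 84.9, 86.9 and 89.5 CPM in NC and at 57.2, 57.1 and 62.9 CPM in RBM47-OE. It fell by 0.56 ± 0.0725 (adjusted p = 1.7e-05) and by 0.39 with the offset (adjusted p = 4.3e-04). ESRRA and MYC fell by 0.27 and 0.22 (adjusted p = 0.0041 and 0.023) and were at -0.05 and -0.11 with the offset. In all, 2 of 8 tested regulators rose and 3 fell, where 19.1% of all genes rose and 16.9% fell. Of 5 genes of mitochondrial transcription TFAM rose by 0.31 (adjusted p = 0.012) and the polymerase POLRMT fell by 0.35 (adjusted p = 8.2e-04), and with the offset 0 of 5 passed by edgeR (1 was lower at an unadjusted p under 0.05).

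Of the 5 ribosomal proteins of mitochondria with other symbols, PTCD3 rose by 0.30 (adjusted p = 0.0039), GADD45GIP1 and AURKAIP1 fell by 0.43 and 0.27 (adjusted p = 2.3e-04 and 0.0056), and DAP3 and CHCHD1 were at 0.13 and -0.14 (adjusted p = 0.13 and 0.19). With the GC offset GADD45GIP1 and CHCHD1 fell, by 0.23 and 0.29 (adjusted p = 0.021 and 0.01). GADD45GIP1 has a GC content of 60.2% and PTCD3 of 41.3%. The 2 mitochondrial rRNAs went opposite ways: MT-RNR1, of the small subunit, stood at 826, 738 and 774 CPM in NC and 582, 502 and 557 CPM in RBM47-OE and fell by 0.51 ± 0.076 (adjusted p = 4.8e-05), and MT-RNR2, of the large subunit, rose by 0.21 ± 0.0768 (adjusted p = 0.035). With the offset MT-RNR1 fell by 0.60 (adjusted p = 2.2e-05) and MT-RNR2 was at 0.02 (adjusted p = 0.9). The libraries were made from polyadenylated RNA, so these 2 values count the rRNA that this selection kept.

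Of 26 tested assembly factors of the mitochondrial ribosome 10 fell and 4 rose, with a median of -0.14, and with the GC offset 6 fell and 2 rose. Over all genes 16.9% fell and 19.1% rose, and with the offset 8.46% fell and 6.0% rose. ERAL1, a GTPase that binds the small subunit rRNA during assembly, fell by 0.55 ± 0.0724 (adjusted p = 2.2e-05) and by 0.40 with the offset (adjusted p = 1.3e-04). It stood at 68.2, 70.6 and 72.8 CPM in NC and at 47.9, 49.1 and 47.6 CPM in RBM47-OE. The helicase DHX30 fell by 0.43 (adjusted p = 8.9e-05) and the rRNA methyltransferase MRM1 by 0.43 (adjusted p = 0.0068), and with the offset DHX30 fell by 0.27 (adjusted p = 0.0021). METTL15, a methyltransferase of the small subunit rRNA, FASTKD2 and GTPBP10 rose by 0.42, 0.38 and 0.34 (adjusted p = 0.0012, 0.0043 and 0.019), and with the offset they were between -0.02 and 0.07.

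A further list held translation factors of mitochondria and some proteins that are not such factors, among them SLIRP and OXA1L. Of its 14 tested genes 6 rose and 3 fell, with a median of 0.20, where 19.1% of all genes rose and 16.9% fell. With the GC offset 2 rose and 4 fell, with a median of 0.05, where 6.0% of all genes rose and 8.46% fell. The initiation factors MTIF3 and MTIF2 rose by 0.52 and 0.46 (adjusted p = 0.0011 and 0.0012), and with that offset by 0.43 and 0.31 (adjusted p = 0.0071 and 0.022). The elongation factor GFM1 rose by 0.50 (adjusted p = 9.2e-04) and was at 0.19 with the offset (adjusted p = 0.13). The elongation factor TUFM fell by 0.39 (adjusted p = 4.8e-04), with 639 to 684 CPM in NC and 471 to 558 CPM in RBM47-OE. SLIRP, which keeps mitochondrial mRNAs stable, and the membrane insertase OXA1L fell by 0.32 and 0.21 (adjusted p = 0.0018 and 0.023), and both also fell with the offset. LRPPRC, the partner of SLIRP, rose by 0.46 (adjusted p = 1.9e-04) and was at 0.10 with the offset (adjusted p = 0.27).

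For the ribosomal proteins of the cytosol, 27 of 79 tested genes fell and 2 rose, with a median of -0.11, and their summed CPM was 10.8% lower in RBM47-OE. In the fit with the GC offset 24 fell and 1 rose, with a median of -0.15. Over all genes 16.9% fell and 19.1% rose, and with the offset 8.46% fell and 6.0% rose. The difference between the cytosolic and the mitochondrial ribosomal protein genes was not tested.

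Of the 78 members 41 share exonic bases with another gene model, 20 of them over 20% of their bases, and 36 have pseudogenes named for them, 81 in all. Among the 37 that share none, 14 fell and 6 rose (median -0.08), and with the GC offset 11 fell and 1 rose (median -0.14). Over all genes 16.9% fell and 19.1% rose, and with the offset 8.46% fell and 6.0% rose.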

How the data were processed

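The authors trimmed the reads with FASTX-Toolkit and mapped them with HISAT2 on GRCh38. The authors deposited, per gene, the raw counts of uniquely mapped reads. From the same alignments the authors made FPKM, which were used here for levels between genes and for limma. The annotation release, counting tool and strand setting are not given in the sources used here, and the labels name a directional library kit. Genes were kept with filterByExpr (minimum count 10), scaled by TMM and tested with edgeR 4.0.16 (glmQLFit, glmQLFTest) on condition alone, with Benjamini-Hochberg adjustment over all genes. The GC offset was a loess curve (span 0.3) of each library's log2 CPM deviation on exonic GC content. DESeq2 1.42.0, limma 3.58.1 and other settings were alternatives. The fits were tested on simulated data. The depth bounds the precision: the lowest member count was 98.

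The members and lists were chosen with earlier results of these data known. Members named in the text were the 8 with the largest change in each direction and the 5 with the GC offset, among those past the threshold whose groups did not overlap, the 3 most and 3 least abundant, the stalk, S18, decoding and disease lists and 4 others. Values of further members were given after they were seen. Of genes outside the family, those past the threshold were named, up to 3 in each direction per list, and LRPPRC after its value was seen. Promoter sequences are RefSeq's. The level of 1 marker of other cells is not reported here.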

Additional observations from a re-analysis of the deposited data

How the results depend on the processing

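The members' median log2 fold change stayed negative under the 20 alternative fits over all members, from -0.19 to -0.10. Scaling by library totals moved the median of all genes by 0.06 and gave 13 members higher and 31 lower. The members that rose numbered 1 with the GC offset, 1 with that offset and the replicate block, 1 with a GC and length offset, and 0 with the GC offset from canonical transcripts (edgeR, where 30 fell and 2 were higher at an unadjusted p under 0.05). With limma on log2(FPKM + 1) 12 were higher and 25 lower, on log2(FPKM + 0.1) 13 and 25, and without a filter 6 and 16. Leaving out each library in turn gave 5 to 13 members higher and 28 to 42 lower, and with the GC offset 0 or 1 higher (0 in all but the fit without RBM47-OE replicate 1) and 15 to 36 lower. The 37 members without shared exons had 14 lower. The sign changes listed below cover only the 40 members named by rule. Others changed sign too. With the GC offset MRPS10 was at -0.013, MRPL32 at -0.26 and MRPL47 at -0.225 (edgeR adjusted p = 0.91, 0.023 and 0.045). The values that changed sign, in the fits with the GC offset, the GC offset and replicate block, the GC and length offset and the canonical GC offset, were -0.007, -0.008, -0.022 and -0.027 for MRPL19, -0.059, -0.065, -0.029 and -0.066 for MRPL50, -0.256, -0.265, -0.258 and -0.268 for MRPS18C, -0.267, -0.27 and -0.281 for MRPS30 in the first 3 of these, and -0.07 for MRPS36 in the last. Signs also changed where neither fit passed: with the same 4 offsets MRPS5 was at -0.167, -0.17, -0.175 and -0.149 and MRPS28 at -0.116, -0.118, -0.032 and -0.097, with the canonical GC offset MRPL45 was at -0.042 and MRPS30 at -0.004, with the length offset MRPS5 was at -0.118, and MRPS23 was at 0.026 with library totals and at 0.033, 0.034 and 0.033 with limma. Leaving out each library in turn gave -0.009 to 0.042 for MRPS5 and -0.095 to 0.023 for MRPS23. The cause was not tested. The replicate block alone gave 11 higher and 35 lower with a median of -0.18, and libraries of equal number did not deviate together (r = -0.06, -0.015 and -0.016). The alternatives with the length term, the canonical transcripts, the members without shared exons and the GC offset with a library left out were chosen after seeing the data.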
